A study of Mus musculus with 8 samples.

Results

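The tumour necrosis factor (TNF) ligand and receptor superfamilies were followed in injured mouse kidney. Members were taken by name: protein-coding genes whose symbol begins with Tnfsf or Tnfrsf and a number, together with Tnf, Lta, Ltb, Ltbr, Fas, Fasl, Cd40 and Cd27. The rule found 38 genes, 14 ligands and 24 receptors, among the 34450 genes of the deposited table. The samples were whole kidneys of C57BL/6J mice aged 8 weeks, taken at day 3 after ischaemia-reperfusion injury (IRI), in which the renal blood supply is stopped and then restored. The mice of 4 samples had been exposed to hypoxia before the injury (hypoxia libraries 1 to 4), and those of the other 4 to normoxia (normoxia libraries 5 to 8). Every kidney was injured and no uninjured kidney was analysed here. The sources do not state how severe the hypoxia was, how long it lasted, or whether each library is a separate mouse, so a p-value here reflects how these 8 libraries scatter, and that scatter may be technical.

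Ligands of this superfamily are made as trimeric membrane proteins, and several are cut from the cell surface by the protease ADAM17. Their receptors fall into groups by the part inside the cell. Receptors with a death domain (Tnfrsf1a, Fas, Tnfrsf10b, Tnfrsf21, Tnfrsf25) can recruit adaptors that activate caspase 8 or the kinase RIPK1. Most others bind TRAF adaptors and activate NF-kappaB, and a few receptors lack a signalling tail and act as decoys. In the kidney, TNF and its receptors are known from the inflammation that follows tubular injury, and Tnfrsf12a, the receptor of the cytokine TWEAK, is known as a gene induced in damaged and regenerating epithelium.

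Values are FPKM, fragment counts divided by transcript length in kilobases and by library size, so levels can be compared between genes. Of the 38 members 14 had a mean of at least 0.5 FPKM over the 8 libraries and were tested, among 14444 genes, with limma on log2(FPKM + 0.5). The threshold was a Benjamini-Hochberg adjusted p under 0.05, and the added 0.5 shrinks the changes of low genes. The libraries differed in composition: ribosomal RNA took 21.5% to 67.4% of the assigned fragments in the hypoxia libraries and 13.5% to 72.5% in the normoxia libraries. Nuclear protein-coding genes took 20.3% to 56.7% and 21.5% to 60.3%. FPKM of every coding gene was therefore diluted to a different degree in each library. For that reason each level is given as deposited and, where it matters, after scaling the libraries to a common sum over protein-coding genes. Depth, estimated from the spacing of low FPKM values, was between 8460000 and 14500000 fragments per library, with between 1620000 and 7950000 in protein-coding genes. Hypoxia libraries 1 and 2 had larger protein-coding shares (42.5% and 56.7%) than 3 and 4 (20.3% and 21.5%), and a fit with each of these pairs averaged to 1 value was therefore added. Normoxia libraries 5 and 7 (56.8% and 60.3%) likewise had larger shares than 6 and 8 (28.6% and 21.5%), but these were not averaged. The proximal tubule transporter gene Slc34a1 was at least 37.6 FPKM and the loop of Henle gene Umod at least 120.2 FPKM in every library. Normoxia library 5 stood apart: FPKM times exon length added up to 0.795 of the expected total there and to 0.908 to 0.948 in the other 7, so results that change without it are given both ways.

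One member passed the threshold as deposited: Tnfrsf23 fell after hypoxic preconditioning. Tnfrsf12a and Tnfrsf1b were also lower in every hypoxia library than in any normoxia library but did not pass as deposited. After scaling to protein-coding genes Tnfrsf23, Tnfrsf12a and Tnfrsf1b all fell. No member rose in either setting, and at an unadjusted p under 0.05 in limma 4 tested members were lower and none was higher. The background is small: over all tested genes 0.602% fell and 0.305% rose as deposited, and 1.58% fell and 1.02% rose after that scaling. At the unadjusted p, 6.84% of all tested genes were lower and 2.52% were higher. Of the 14 tested members 10 had a negative change, where 61% of all tested genes did. Their median was -0.47, and that of all tested genes -0.14. Of the 14, 3 (Tnfrsf23, Tnfrsf22 and Tnfrsf10b) had a mean below 0.5 FPKM in the hypoxia libraries and were tested because of their normoxia level, so these counts describe the tested members and not the family.

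**Figure D1:**
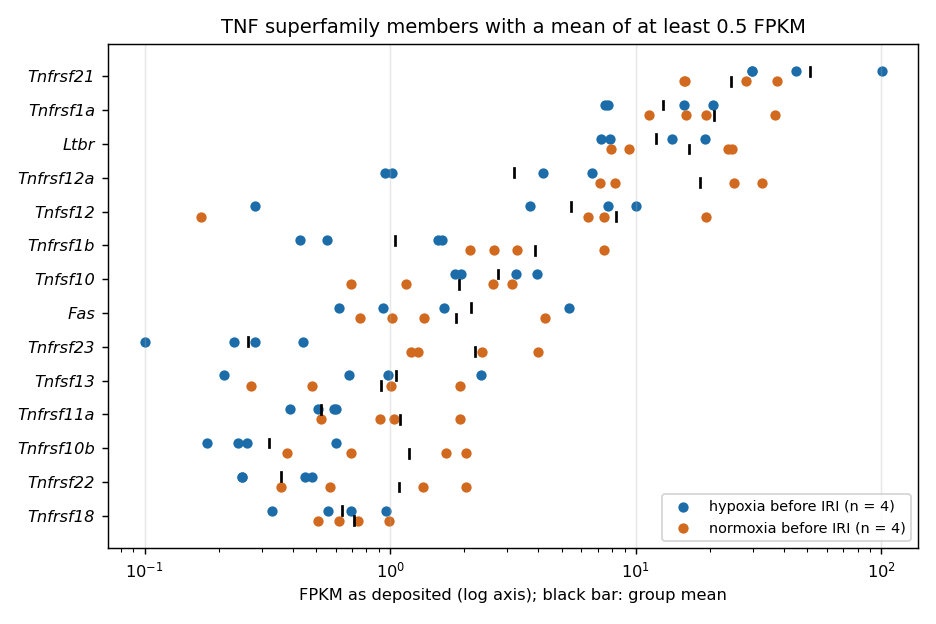
FPKM as deposited (log axis) of the 14 tested members, with 1 point per library, blue for hypoxia and orange for normoxia before IRI, and a black bar at each group mean. The groups do not overlap for Tnfrsf12a, Tnfrsf1b and Tnfrsf23, and Tnfrsf21 has the highest mean of the 14.

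Tnfrsf23 encodes a decoy receptor of the mouse for the death ligand TRAIL. It lies on chromosome 7 from 143665809 to 143685872 on the minus strand (GRCm38, GENCODE M21). It was 0.44, 0.28, 0.10 and 0.23 FPKM in hypoxia libraries 1 to 4 and 2.36, 1.30, 4.01 and 1.21 FPKM in normoxia libraries 5 to 8. Every hypoxia value lay below every normoxia value. The means were 0.263 ± 0.141 and 2.22 ± 1.30 FPKM (SD, n = 4 each). On the log2 scale Tnfrsf23 changed by -1.74 ± 0.42 (SE, limma adjusted p = 0.0457). These levels rest on few reads, roughly 3 to 21 fragments per hypoxia library and 43 to 230 per normoxia library. After scaling to protein-coding genes the libraries drew together, at 0.356, 0.169, 0.167 and 0.361 against 1.67, 1.56, 2.34 and 1.91 FPKM, and the log2 change was -1.63 ± 0.26 (SE, limma adjusted p = 0.0193). As deposited, the call was lost when any one of hypoxia libraries 1 to 4 or normoxia libraries 5 or 7 was left out (limma adjusted p between 0.0507 and 0.208), while the log2 change stayed between -1.92 and -1.46 over the 8 libraries left out in turn. The call also ended with a pseudocount of 1 (limma adjusted p = 0.0709), without a variance trend (0.164), without a filter (0.389) and with the hypoxia libraries averaged in pairs (0.439). In whole kidney, fewer cells that carry a transcript and less of it per cell cannot be told apart, here and in every result that follows.

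Tnfrsf22, its neighbour on chromosome 7 (143634806 to 143649661, minus strand), encodes another decoy receptor and resembles it closely. The coding sequences of the longest annotated forms (597 and 531 bases) aligned over 461 bases with 423 identical (91.8%), so short reads can be credited to the wrong gene of the pair. Of the 1427 stretches of 50 bases in the longest Tnfrsf23 transcript, 426 occur unchanged in that of Tnfrsf22. The stretches below are 150 bases of each gene from the coding alignment, with the 19 bases that differ in capitals. They are coding bases 77 to 226 of Tnfrsf22 and 47 to 196 of Tnfrsf23, from the GENCODE M21 transcripts. No run of 50 identical bases lies within them, so the shared stretches of that length lie elsewhere in the transcripts.
Tnfrsf22: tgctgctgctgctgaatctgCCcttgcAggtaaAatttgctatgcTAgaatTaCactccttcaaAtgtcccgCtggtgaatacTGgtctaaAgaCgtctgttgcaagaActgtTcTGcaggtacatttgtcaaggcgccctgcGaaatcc
Tnfrsf23: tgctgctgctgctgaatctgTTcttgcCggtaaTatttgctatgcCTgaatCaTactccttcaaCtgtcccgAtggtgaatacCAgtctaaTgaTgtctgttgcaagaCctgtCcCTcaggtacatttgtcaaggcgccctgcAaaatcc

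Tnfrsf22 was 0.45, 0.48, 0.25 and 0.25 FPKM after hypoxia and 1.36, 0.57, 2.04 and 0.36 FPKM after normoxia, and its groups overlapped through normoxia library 8. It did not pass (log2 change -0.76 ± 0.42, SE, limma adjusted p = 0.64). The summed level of the pair, which still depends on the length used for each gene, was 0.89, 0.76, 0.35 and 0.48 FPKM after hypoxia and 3.72, 1.87, 6.05 and 1.57 FPKM after normoxia, with no overlap (difference of mean log2 values -1.63, two-sided exact permutation p = 0.0286, the smallest that 4 against 4 libraries can give). This sum was chosen after the values were seen. It contains Tnfrsf23, whose groups were already known to be apart, so its p-value adds no support beyond the Tnfrsf23 values. Both genes had hypoxia means below 0.5 FPKM and were tested because of their normoxia level. The remaining receptor gene of the cluster, Tnfrsf26, shared no aligned transcript sequence with either and was between 0 and 0.45 FPKM in every library.

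Tnfrsf12a encodes Fn14, the small TRAF-binding receptor of TWEAK. It lies on chromosome 17 from 23675445 to 23677468 on the minus strand. It was 6.60, 4.17, 1.02 and 0.95 FPKM after hypoxia and 32.67, 7.18, 25.20 and 8.20 FPKM after normoxia. The groups did not overlap, although hypoxia library 1 came close to normoxia library 6, and the spread within each group was wide. The means were 3.19 ± 2.73 and 18.3 ± 12.6 FPKM (SD, n = 4 each). The log2 difference was -2.40 ± 0.68 (SE, limma adjusted p = 0.0895). That is the largest change of the tested members as deposited, and it missed the threshold. Scaled to protein-coding genes, Tnfrsf12a was 5.34, 2.52, 1.70 and 1.49 after hypoxia and 23.1, 8.59, 14.7 and 13 FPKM after normoxia, and it fell (log2 change -2.29 ± 0.42, SE, limma adjusted p = 0.0262). With TMM scaling, which equalises the bulk of the genes, it did not pass (limma adjusted p = 0.0583), and without normoxia library 5 under that scaling it fell by 1.81 (limma adjusted p = 0.0227). Over all tested genes 1.32% fell and 1.21% rose with TMM scaling, and 5.32% fell and 5.77% rose with it when normoxia library 5 was left out.

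The ligand TWEAK is encoded by Tnfsf12, the most abundant ligand of the family here. Tnfsf12 was 7.72, 10.02, 0.28 and 3.70 FPKM after hypoxia and 0.17, 7.40, 19.24 and 6.37 FPKM after normoxia. The groups overlapped throughout and the change was small beside its error (log2 change -0.34 ± 0.83, SE, limma adjusted p = 0.999). Without normoxia library 5 the log2 change was larger and still did not pass. It was -1.32 ± 0.82 as deposited, -1.12 ± 0.67 with TMM scaling and -1.36 ± 0.65 with protein-coding scaling (SE, limma adjusted p = 0.692, 0.352 and 0.211). The 2 libraries below 1 FPKM, hypoxia 3 and normoxia 5, belong to different groups. Tnfsf12 shares 731 of its 1515 exon bases with Tnfsfm13, a readthrough gene that joins it to Tnfsf13, and 983 of the 1637 exon bases of Tnfsf13 are shared in the same way. How the authors' counting divided reads among these genes is uncertain. Summed over Tnfsf12, Tnfsf13 and Tnfsfm13 the level was 10.49, 13.46, 2.43 and 4.83 FPKM after hypoxia and 2.65, 10.06, 27.19 and 8.65 FPKM after normoxia (two-sided exact permutation p = 0.629). With all 8 libraries neither the ligand gene nor the sum separated the groups, and the sum was not recomputed without normoxia library 5. Tnfsf13 itself, the gene of the B-cell cytokine APRIL, lay between 0.21 and 2.34 FPKM in all 8 libraries (log2 change 0.09 ± 0.47, SE).

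Of the receptors of TNF itself, Tnfrsf1a was among the highest members and Tnfrsf1b was low. Tnfrsf1b encodes TNFR2, the receptor without a death domain, known from leukocytes and endothelium. It lies on chromosome 4 from 145213463 to 145246870 on the minus strand. It was 1.57, 1.63, 0.43 and 0.55 FPKM after hypoxia and 3.28, 2.65, 7.42 and 2.12 FPKM after normoxia. All hypoxia values were below all normoxia values (means 1.05 ± 0.643 and 3.87 ± 2.42 FPKM, SD, n = 4 each). The log2 change was -1.46 ± 0.49 (SE, limma adjusted p = 0.195). Scaled to protein-coding genes, Tnfrsf1b was 1.27, 0.987, 0.718 and 0.863 against 2.32, 3.17, 4.33 and 3.35 FPKM, and it fell (log2 change -1.37 ± 0.27, SE, limma adjusted p = 0.032). It also fell with TMM scaling (limma adjusted p = 0.0279), and by 1.28 under that scaling without normoxia library 5 (limma adjusted p = 0.0102).

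Tnfrsf1a, the gene of the death-domain receptor TNFR1 that most cells carry, was 15.69, 20.57, 7.68 and 7.52 FPKM after hypoxia and 19.27, 16, 36.72 and 11.36 FPKM after normoxia. As deposited the groups overlapped and it did not pass (log2 change -0.67 ± 0.69, SE, limma adjusted p = 0.93). After scaling to protein-coding genes the hypoxia libraries were nearly equal, at 12.7, 12.5, 12.8 and 11.8 FPKM, and all below the normoxia libraries at 13.6, 19.1, 21.4 and 18 FPKM. That difference did not pass with all 8 libraries (limma adjusted p = 0.456) and passed without normoxia library 5 (log2 change -0.62, limma adjusted p = 0.0417), a setting in which 9.03% of all tested genes fell. With TMM scaling without normoxia library 5 it did not pass (log2 change -0.37, limma adjusted p = 0.215).

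Tnf, the founding ligand, was 0.27, 0.04, 0 and 0 FPKM after hypoxia and 0.18, 0.35, 1.09 and 0.41 FPKM after normoxia. Normoxia library 7 was the highest, and hypoxia library 1 lay above normoxia library 5, so the groups overlapped. The mean over all libraries was below 0.5 FPKM and Tnf was not tested. In reads, these values amount to roughly 0 to 5 fragments per hypoxia library and 4 to 26 per normoxia library. In hypoxia library 3, a single fragment of Tnf would have been worth about 0.0721 FPKM, so a value listed at 0 there does not show that the transcript was absent. In the fit without a filter the log2 change of Tnf was -0.75 ± 0.28 (SE, limma adjusted p = 0.644).

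**Figure D2:**
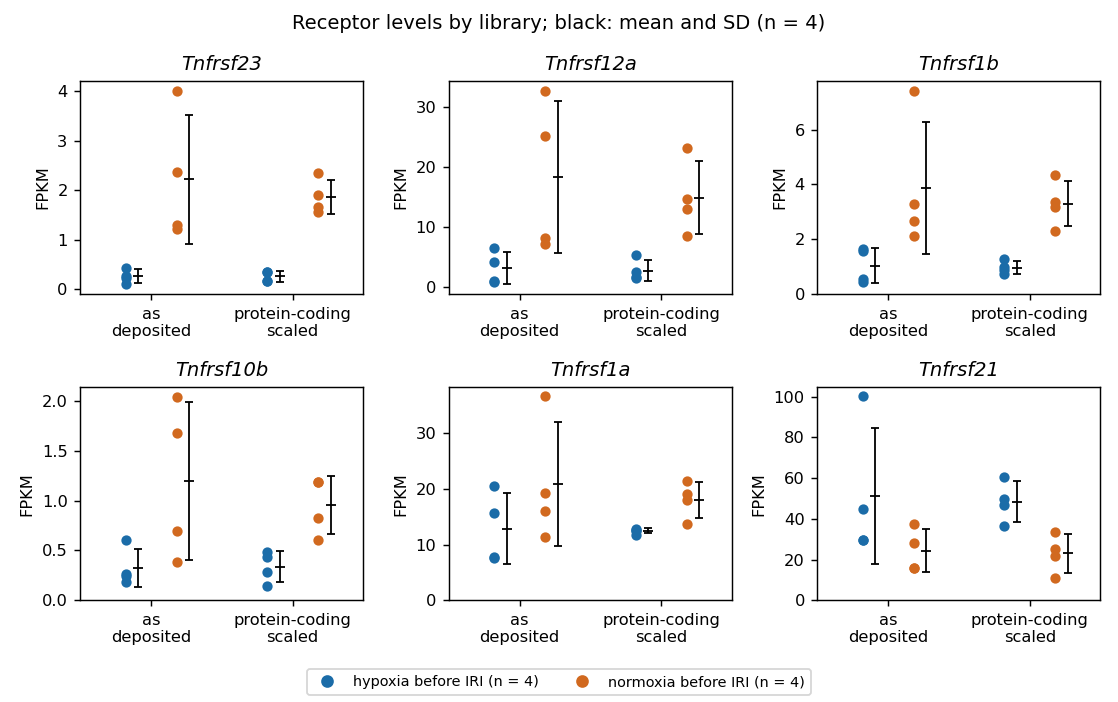
Levels of 6 receptor genes (linear axes, FPKM) as deposited and after scaling each library to a common sum over protein-coding genes, with 1 point per library and the mean and SD of each group in black. After scaling, the blue hypoxia points of Tnfrsf23, Tnfrsf12a, Tnfrsf1b, Tnfrsf10b and Tnfrsf1a lie below all orange normoxia points, and those of Tnfrsf21 lie above them.

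Among the other death-domain receptors no member passed as deposited, and they did not share a direction. Tnfrsf21, the gene of death receptor 6, had the highest level of the family and the highest change. It was 44.83, 100.21, 29.84 and 29.70 FPKM after hypoxia and 15.70, 28.15, 37.67 and 15.91 FPKM after normoxia. Normoxia library 7 lay above hypoxia libraries 3 and 4, and the change did not pass (log2 change 0.96 ± 0.75, SE, limma adjusted p = 0.864). Scaled to protein-coding genes, Tnfrsf21 was 36.3, 60.7, 49.8 and 46.6 FPKM after hypoxia and 11.1, 33.7, 22 and 25.2 FPKM after normoxia, without overlap. The log2 change was then 1.14 ± 0.39 (SE, limma adjusted p = 0.179), and without normoxia library 5 it was 0.83 (limma adjusted p = 0.0615). With TMM scaling Tnfrsf21 did not pass with all 8 libraries (limma adjusted p = 0.121) and rose without normoxia library 5 (log2 change 1.09, limma adjusted p = 0.0406). Tnfrsf21 lies on chromosome 17 from 43016555 to 43089189 on the plus strand.

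Tnfrsf10b encodes the signalling TRAIL receptor of the mouse. It was 0.60, 0.24, 0.26 and 0.18 FPKM after hypoxia and 1.68, 0.69, 2.04 and 0.38 FPKM after normoxia. Hypoxia library 1 lay above normoxia library 8, and the change did not pass (log2 change -0.95 ± 0.42, SE, limma adjusted p = 0.458), although its unadjusted p was 0.0337. After scaling to protein-coding genes its groups no longer overlapped, at 0.145 to 0.485 and 0.601 to 1.19 FPKM, and it still did not pass (limma adjusted p = 0.188). Its ligand gene Tnfsf10, which encodes TRAIL, was 3.96, 3.24, 1.84 and 1.95 FPKM after hypoxia and 0.69, 2.63, 3.12 and 1.16 FPKM after normoxia, with overlap (log2 change 0.52 ± 0.49, SE, limma adjusted p = 0.915). Both the signalling receptor and the decoys of TRAIL thus had lower means after hypoxia, and the ligand had a higher one (2.75 ± 1.03 against 1.90 ± 1.16 FPKM, SD, n = 4 each). Of these only the decoy Tnfrsf23 passed.

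Fas, the gene of the receptor of Fas ligand, was 1.65, 5.33, 0.93 and 0.62 FPKM after hypoxia and 0.75, 1.37, 4.25 and 1.02 FPKM after normoxia. One library in each group, hypoxia 2 and normoxia 7, stood above the rest, and the groups did not differ beyond their spread (log2 change 0.06 ± 0.54, SE, limma adjusted p = 0.999). Fasl, the gene of its ligand, was above 0 only in normoxia library 7 (0.11 FPKM). Tnfrsf25, the death receptor of the ligand TL1A, lay between 0.17 and 1.09 FPKM and was not tested.

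Ltbr, the gene of the lymphotoxin beta receptor of stromal and epithelial cells, was 14.01, 19.07, 7.21 and 7.86 FPKM after hypoxia and 23.76, 9.34, 24.73 and 7.91 FPKM after normoxia. The groups overlapped (log2 change -0.37 ± 0.68, SE, limma adjusted p = 0.999). With protein-coding scaling the hypoxia values narrowed to 11.3, 11.5, 12 and 12.3 FPKM and the normoxia values to 16.8, 11.2, 14.4 and 12.5 FPKM, still overlapping. The genes of its ligands were low: Ltb was at most 0.29 FPKM after hypoxia and between 0.07 and 1.16 FPKM after normoxia, and Lta was listed at 0 in 6 libraries and reached 0.15 FPKM.

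Tnfrsf11a encodes RANK, the receptor of the osteoclast cytokine RANKL. It was 0.59, 0.39, 0.60 and 0.51 FPKM after hypoxia and 0.52, 0.91, 1.93 and 1.04 FPKM after normoxia, overlapping through normoxia library 5 (log2 change -0.58 ± 0.40, SE, limma adjusted p = 0.807). The RANKL gene Tnfsf11 was listed at 0 in all 8 libraries. Tnfrsf11b encodes the soluble decoy osteoprotegerin and was listed at 0 in 5 libraries. It was 0.03, 0.07, 0 and 0 FPKM after hypoxia and 0, 0, 0 and 0.12 FPKM after normoxia. The receptor was thus measured without a measurable transcript of its ligand.

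**Figure D3:**
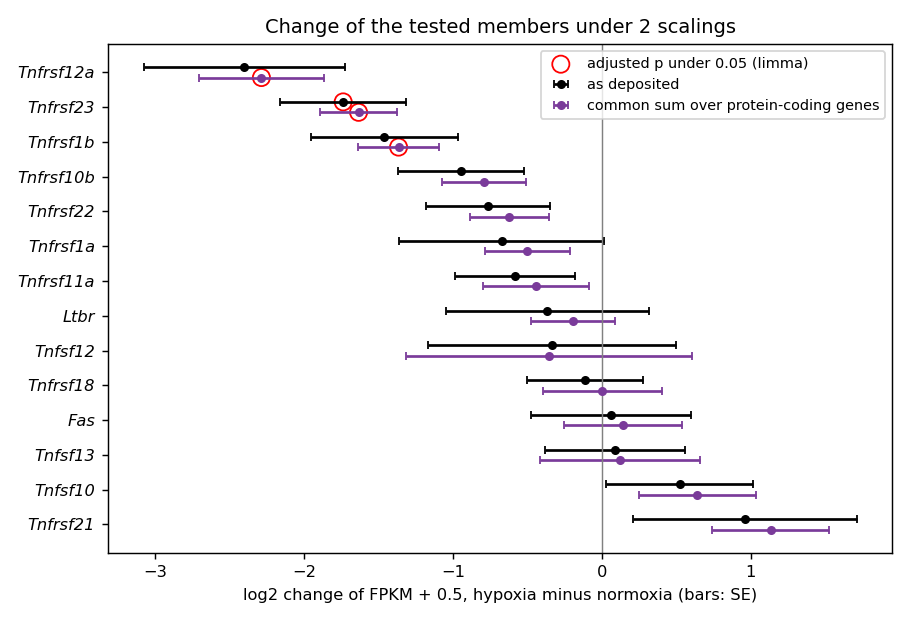
log2 change (hypoxia minus normoxia, bars give the SE) of the 14 tested members as deposited (black) and after scaling to protein-coding genes (purple), with calls at an adjusted p under 0.05 ringed in red. Tnfrsf23 is ringed in both settings, and Tnfrsf12a and Tnfrsf1b after scaling.

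Among all 14 tested members the groups were apart, with the hypoxia libraries lower, for 3 as deposited (Tnfrsf23, Tnfrsf12a and Tnfrsf1b), where 3.06% of all tested genes were. After scaling to protein-coding genes this held for 6 of the 14, where it held for 7.02% of all tested genes. The 3 added were Tnfrsf10b, Tnfrsf22 and Tnfrsf1a. Of the 6, Tnfrsf23, Tnfrsf10b and Tnfrsf22 had hypoxia means below 0.5 FPKM (0.263, 0.32 and 0.358). They were tested because of their normoxia level, which favours this direction, so neither count describes the family. One of the 14, Tnfrsf21, was apart in the other direction after scaling (5.26% of all tested genes) and none as deposited (1.86%). Normoxia library 7 held the highest deposited value of 23 of the 36 members that were above 0 anywhere, and after scaling of 14. That library also had the largest share of protein-coding fragments (60.3%). The matching share over all genes was not counted, so this is not read as a trait of the family, and its cause was not tested.

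The 24 members below a mean of 0.5 FPKM included most of the ligands and the receptors known from lymphocytes. None exceeded 1.66 FPKM in any library (Tnfrsf4 in normoxia library 5), 17 were listed at 0 in at least 1 library, and Tnfsf11 and Tnfrsf13c were at 0 in all. Means were lower after hypoxia for 20 of the 24 and higher for 2, Cd27 and Tnfrsf19. Tnfsf4, the gene of OX40 ligand, was not analysed here. In the fit without a filter, 30 of the 36 members above 0 had a negative change, where 58.3% of all 30982 genes did. At an unadjusted p under 0.05, 10 of the 36 were lower and none was higher, against 4.38% lower and 2.15% higher over all genes, and in that limma fit none of the 30982 genes, members included, passed the adjusted threshold.

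Cd40, the receptor gene through which T cells activate B cells, macrophages and tubular cells, was the one low member whose groups did not overlap as deposited. It was 0.28, 0.29, 0.18 and 0.15 FPKM after hypoxia and 0.64, 0.42, 0.91 and 0.45 FPKM after normoxia. The means were 0.225 ± 0.0705 and 0.605 ± 0.225 FPKM (SD, n = 4 each), from roughly 5 to 14 and 14 to 45 fragments. In the fit without a filter the log2 change was -0.59 ± 0.24 (SE, limma adjusted p = 0.719). Over all genes above 0 in at least 1 library, 2.21% had groups apart in that direction. Its ligand gene Cd40lg, outside the naming rule, was above 0 only in normoxia library 7 (0.06 FPKM). After scaling to protein-coding genes the low member Tnfsf8 was also apart, at 0 to 0.0324 FPKM after hypoxia and 0.0707 to 0.479 FPKM after normoxia. Those values rest on roughly 0 to 3 and 2 to 15 fragments.

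Of the B-cell members, Tnfsf13b, the gene of the survival cytokine BAFF, was 0.24, 0.28, 0.09 and 0.11 FPKM after hypoxia and 0.26, 0.52, 1.1 and 0.20 FPKM after normoxia, with overlap. Its receptor genes were near 0: Tnfrsf13c was at 0 everywhere, Tnfrsf17 was above 0 only in normoxia library 7 (0.26 FPKM), and Tnfrsf13b was at most 0.24 FPKM after hypoxia and between 0.15 and 1.05 FPKM after normoxia. Of the receptors that costimulate T cells, only Tnfrsf18 (GITR) was tested, at 0.33 to 0.96 FPKM after hypoxia and 0.51 to 0.99 FPKM after normoxia (log2 change -0.11 ± 0.39, SE, limma adjusted p = 0.999). The sign of the Tnfrsf18 change flipped with TMM, quantile and protein-coding scaling, and an antisense gene overlaps 414 of its 1524 exon bases. Tnfrsf9 (4-1BB) was 0.18, 0.14, 0 and 0 FPKM after hypoxia and 0.52, 0.07, 1.09 and 0.48 FPKM after normoxia.

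**Figure D4:**
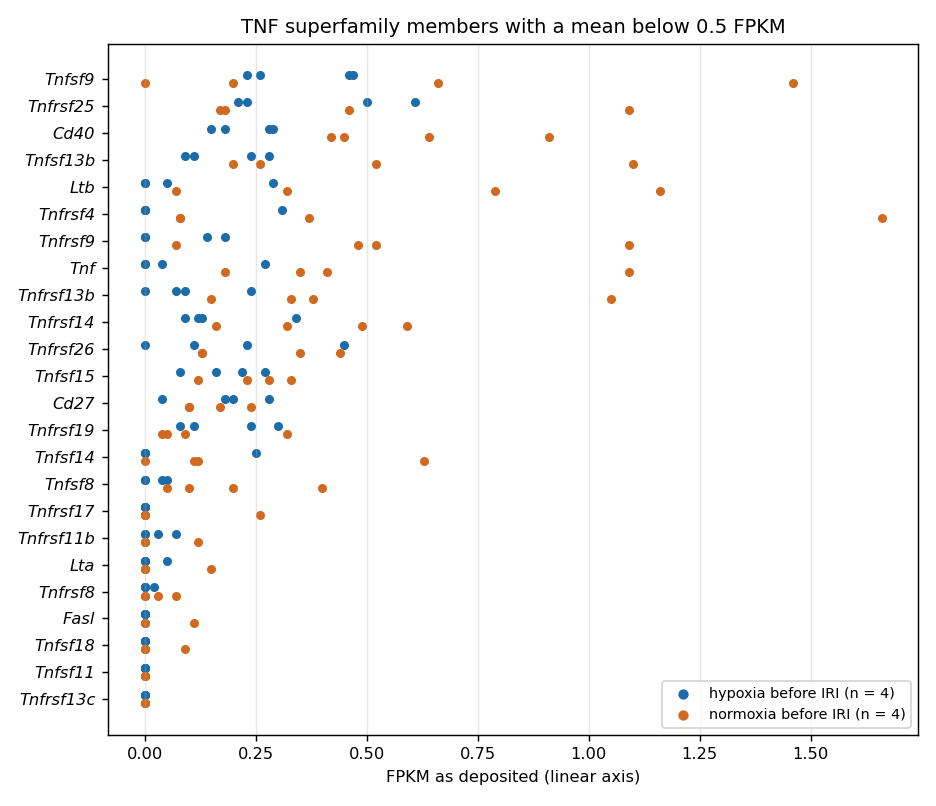
FPKM as deposited (linear axis) of the 24 members below a mean of 0.5 FPKM, with 1 point per library. Many points lie at 0, the orange normoxia points reach further right for most genes, and only for Cd40 are all blue points left of all orange ones.

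Promoter sequences are shown for the 3 receptor genes that fell after scaling and for Tnfrsf21, which had the highest change in the other direction. RefSeq (GRCm38.p6) held promoters for 31 of the 38 members, 35 in all. The 250 bases before each start were searched on both strands for the kappaB consensus, the AP-1 motif TGANTCA, the Sp1 motif GGGCGG, the hypoxia response element cores ACGTG and GCGTG, and TATAAA. Bases within an annotated exon (19 for Tnfrsf12a) were left out of what is printed, and capitals mark every match to a motif, on either strand.
Tnfrsf23 (chr7:143685876-143686125, minus strand): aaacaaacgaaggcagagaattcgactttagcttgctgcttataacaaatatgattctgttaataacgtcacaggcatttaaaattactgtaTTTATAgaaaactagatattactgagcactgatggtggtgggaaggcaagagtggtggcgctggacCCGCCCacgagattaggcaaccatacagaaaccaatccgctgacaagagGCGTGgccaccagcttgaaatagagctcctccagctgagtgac
Tnfrsf12a (chr17:23677469-23677699, minus strand): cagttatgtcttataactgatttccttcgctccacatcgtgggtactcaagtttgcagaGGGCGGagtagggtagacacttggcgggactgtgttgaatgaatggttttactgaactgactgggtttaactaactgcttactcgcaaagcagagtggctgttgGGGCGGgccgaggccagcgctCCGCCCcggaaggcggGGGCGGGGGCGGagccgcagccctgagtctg
Tnfrsf1b (chr4:145246871-145247120, minus strand): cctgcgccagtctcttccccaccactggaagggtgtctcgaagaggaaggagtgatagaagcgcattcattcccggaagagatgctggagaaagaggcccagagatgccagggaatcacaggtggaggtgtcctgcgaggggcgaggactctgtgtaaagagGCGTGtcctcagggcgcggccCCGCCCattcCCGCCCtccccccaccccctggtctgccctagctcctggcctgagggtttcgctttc
Tnfrsf21 (chr17:43016305-43016554, plus strand): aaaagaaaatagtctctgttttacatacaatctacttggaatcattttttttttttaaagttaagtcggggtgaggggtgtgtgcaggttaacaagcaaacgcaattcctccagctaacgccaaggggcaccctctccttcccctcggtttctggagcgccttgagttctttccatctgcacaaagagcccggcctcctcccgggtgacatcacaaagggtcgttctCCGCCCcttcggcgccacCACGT

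All 4 windows held the Sp1 motif, 5 times in Tnfrsf12a, where 2 matches abut, 2 times in Tnfrsf1b and once in each of the others, and 32.7% of all 32851 promoters of this length held it. GCGTG was found in Tnfrsf23 and Tnfrsf1b (28.2% of all promoters) and ACGTG, as its complement, at the last bases before the start of Tnfrsf21 (16.6%). Tnfrsf23 alone of the 4 held TATAAA, on the opposite strand (12.4%). The kappaB consensus and the AP-1 motif were in none of the 4 (7.25% and 6.75% of all promoters). Over the 35 member promoters the kappaB consensus was in 4, those of Ltb, Tnfrsf25, Tnfrsf8 and Tnfrsf9, and the AP-1 motif was in 6. These are letter matches in a short window and describe no binding.

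The genes that act downstream of the receptors were read out from lists. Among 30 signal transducers, all tested, 2 fell and none rose, where 0.602% of all tested genes fell and 0.305% rose (median log2 change -0.36, all tested genes -0.14). The 2 were Ripk3 (log2 change -1.86 ± 0.45, SE, limma adjusted p = 0.0425) and Mlkl (-1.79 ± 0.43, SE, limma adjusted p = 0.043), the kinase and the pore-forming effector of necroptosis, a lytic death that TNFR1 can start. Ripk3 was 0.50, 0.45, 0 and 0.13 FPKM after hypoxia and 2.72, 1.5, 4.62 and 1.07 FPKM after normoxia, and Mlkl 0.67, 0.40, 0.19 and 0.42 FPKM against 2.91, 1.66, 4.64 and 2.01 FPKM, both without overlap. Their hypoxia means (0.27 and 0.42 FPKM) were below the filter of 0.5 FPKM, so both were tested because of their normoxia level. Both calls were lost without hypoxia library 2, 3 or 4 or normoxia library 5 or 7 (limma adjusted p up to 0.218 for Ripk3 and 0.184 for Mlkl, both without normoxia library 7). They were also lost with a pseudocount of 1 (limma adjusted p = 0.0672 for both), without a filter (0.422 and 0.374), without a variance trend (0.164 and 0.139) and with the hypoxia libraries averaged in pairs (0.352 and 0.493). Ripk3 and Mlkl passed with protein-coding scaling (limma adjusted p = 0.0188 and 0.0215) and with TMM scaling (0.0228 and 0.0206). In those settings 1.58% and 1.32% of all tested genes fell. The TRAF, cIAP and caspase 8 genes did not pass: Traf1 had a log2 change of -1.03 ± 0.39 (SE, limma adjusted p = 0.297), Birc3 of -0.78 ± 0.50 and Casp8 of -0.63 ± 0.64. Traf1 had a hypoxia mean of 0.175 FPKM and was likewise tested because of its normoxia level.

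Of 24 tested NF-kappaB subunits, inhibitors and targets 1 fell and none rose. A negative change was seen in 22 of the 24 (list median -1.12), where 61% of all tested genes had one. Of the 22, Cxcl2 and Ccl20 had hypoxia means (0.335 and 0.1375 FPKM) below the filter of 0.5 FPKM. Both were tested because of their normoxia level, which favours this direction. The 1 that fell was Ccl2, a chemokine gene of monocyte recruitment, at 2.29, 0.76, 0 and 0.61 FPKM after hypoxia and 3.48, 8.72, 38.73 and 8.00 FPKM after normoxia (log2 change -3.15 ± 0.64, SE, limma adjusted p = 0.0172). Without normoxia library 7 the Ccl2 change was -2.52 (limma adjusted p = 0.124), and its call held without each of the other 7 libraries. The call also ended without a filter (limma adjusted p = 0.414), without a variance trend (0.0848) and with the hypoxia libraries averaged in pairs (0.0884). Ccl2 passed with protein-coding scaling (limma adjusted p = 0.0329) and with TMM scaling (0.0282). Relb and Nfkb2, the subunits that Ltbr and Tnfrsf12a activate through the alternative NF-kappaB pathway, were lower in every hypoxia library and did not pass as deposited (log2 change -1.53 ± 0.51 and -1.72 ± 0.60, SE, limma adjusted p = 0.188 and 0.22). After scaling to protein-coding genes both fell (limma adjusted p = 0.0356 and 0.0273), and with TMM scaling neither passed (0.0507 and 0.0567). The number that fell in this list was 4 with protein-coding scaling (1.58% of all tested genes) and 17 when normoxia library 5 was also left out, where 1 rose, against 9.03% of all tested genes that fell and 3.77% that rose in that setting.

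No member of the other lists passed. Among 6 genes of ligand shedding the smallest p-values were those of Rhbdf2 (log2 change -0.97 ± 0.52, SE, limma adjusted p = 0.618) and Frmd8 (-0.82 ± 0.58, SE, limma adjusted p = 0.82), partners of the protease. Its own gene, Adam17, had a log2 change of -0.36 ± 0.49 (SE, limma adjusted p = 0.982). Among 12 genes of apoptosis downstream of the death receptors Bak1 had the smallest p (log2 change -1.65 ± 0.61, SE, limma adjusted p = 0.273), followed by Apaf1 (-0.68 ± 0.42, SE, limma adjusted p = 0.725). Apaf1 had a hypoxia mean of 0.4575 FPKM, below the filter of 0.5 FPKM, and was tested because of its normoxia level. The medians of these lists were -0.54 and -0.42.

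**Figure D5:**
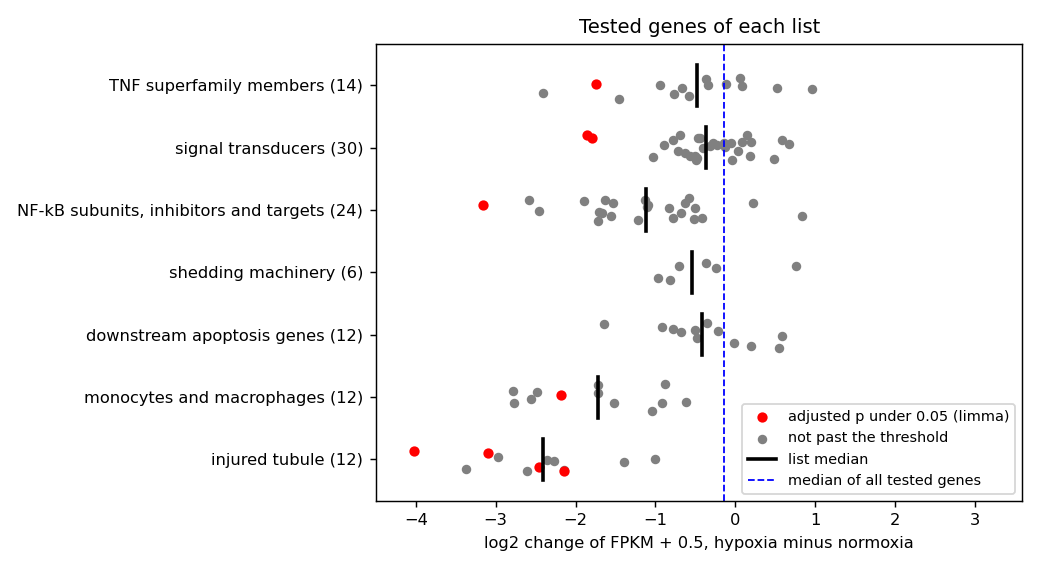
log2 change (hypoxia minus normoxia) of each tested gene in 7 lists, with genes past the adjusted threshold in red, the list median as a black bar and the median of all tested genes (-0.14) as a dashed line. The lists of monocyte and macrophage and of injured tubule markers have medians of -1.72 and -2.41, further left than the median of the TNF superfamily members (-0.47).

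Several lists of cell type markers differed between the groups, some lower after hypoxia like the receptor genes and some higher. The summed level of the 12 monocyte and macrophage markers was 103.2, 99.7, 20.9 and 24.7 FPKM in hypoxia libraries 1 to 4 and 793.9, 193.03, 592.5 and 133.04 FPKM in normoxia libraries 5 to 8, and the groups did not overlap. All 12 had a negative change and 1, Fcgr1, passed (log2 change -2.18 ± 0.48, SE). The 12 injured tubule markers summed to 285.6 to 2591 FPKM after hypoxia and 1776 to 5295 FPKM after normoxia, and all 12 had a negative change. Of these 4 fell: Timp1 (log2 change -4.03 ± 0.88, SE), Krt20 (-3.10 ± 0.73), Cd44 (-2.46 ± 0.57) and Sox9 (-2.14 ± 0.45). Over all tested genes 0.602% fell, 0.305% rose and 61% had a negative change. The marker calls and changes are given as deposited only. The hypoxia means of Fcgr1 and Sox9 (0.265 and 0.36 FPKM) were below the filter of 0.5 FPKM, so both were tested because of their normoxia level. So were the macrophage markers Itgam, Ccr2 and Ly6c2 (hypoxia means 0.3825, 0.3975 and 0.3425 FPKM). That favours a negative change, and the direction counts and medians of these lists include such genes. The 8 fibroblast and pericyte markers summed to 29.9 to 65.9 FPKM and 110.5 to 338.04 FPKM, also without overlap, and none passed (median log2 change -1.25). Of the 8, 6 had a negative change, and Dcn and Pdgfra a positive one (0.34 and 0.15). Acta2, Col1a1 and Col3a1 had the highest normoxia means of this list (56.3, 46.8 and 36.1 FPKM). Neutrophil markers (6 in the table, 3 tested) summed to 0.06 to 3.96 FPKM and 2.71 to 71.4 FPKM, and 11 T and NK cell markers to 0.17 to 1.27 and 0.18 to 6.79 FPKM. In the other direction, all 9 markers of the loop of Henle and distal nephron had a positive change (median 1.48, sums of 503.5 to 2010 and 172.4 to 636.7 FPKM). Of these 2 rose, Egf (log2 change 4.12 ± 0.69, SE) and Calb1 (3.10 ± 0.64). Of 10 proximal tubule markers 9 had a positive change and none passed (median 1.03, sums of 3019 to 14654 and 415.9 to 11684 FPKM). Of 8 endothelial markers 6 had a positive change and none passed (median 0.35, sums of 38.4 to 96.1 and 27.95 to 90.6 FPKM). Single genes made up much of some sums. In hypoxia library 1 Spp1 held 2259 of 2591 FPKM of the injured tubule markers, and Kap 12332 of 14168 FPKM of the proximal tubule markers. Umod held 1436 of 2010 FPKM of the loop and distal nephron markers in hypoxia library 2. C1qb held 384.1 of 793.9 FPKM of the macrophage markers in normoxia library 5. None of these genes passed. The part of these cell types in the changes of Tnfrsf23, Tnfrsf12a and Tnfrsf1b was not tested.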

How the data were processed

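Kidney RNA was profiled in 8 libraries. Per the labels' protocols, poly(A) libraries were made with a stranded kit from frozen tissue. The submitters' processing notes name HISAT2, StringTie and edgeR. What each did, their versions, the build and the annotation were not given in the sources used here. Per the file headers, the deposited values are FPKM per gene and library, which the authors computed. All 34450 gene identifiers matched GENCODE M21 (GRCm38), used for symbols, exon lengths and coordinates.

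Members, lists and tests were chosen with earlier results of these data known. Genes with a mean of at least 0.5 FPKM were tested as log2(FPKM + 0.5) with limma 3.58.1 in R 4.3.3 (trended prior variance, two-sided), and p-values were adjusted by the Benjamini-Hochberg method over all 14444 genes. The step was tested on simulated data. Values in every library are given for members past the adjusted threshold or with an unadjusted p under 0.05, and for 16 members fixed by name. From each pathway list every passing gene was named, otherwise the 2 with the smallest p. Genes outside that rule (Cd40lg, Slc34a1, Umod, Adam17, Traf1, Birc3, Casp8, Relb, Nfkb2, Cxcl2, Ccl20, Relt, Eda2r, Cd70, and the markers named) and the other low members were chosen after their values were seen.

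Library depth is an estimate with no interval: low FPKM values of single-exon genes (600 to 3000 bases), multiplied by length, step by the worth of one fragment. Fragment numbers are FPKM times exon length times that depth. Protein-coding scaling divided each library by its sum of FPKM times exon length over nuclear protein-coding genes. Alternatives were a pseudocount of 0.1 or 1, a minimum of 2 FPKM or none, TMM scaling (computed from its formula on tested genes), quantile normalization, protein-coding scaling, removal of the trend with exon length (loess, span 0.5), robust and untrended variance, an adjusted p of 0.10, TMM scaling without normoxia library 5, and each library left out. Protein-coding scaling without normoxia library 5, and hypoxia libraries averaged in pairs, were added after seeing the data.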

Additional observations from a re-analysis of the deposited data

How the results depend on the processing

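The number of members that fell (1 as deposited, Tnfrsf23) was 0 with a pseudocount of 1, without a filter, without a variance trend, and with the hypoxia libraries averaged in pairs. It was 2 with TMM scaling and at an adjusted p of 0.10, and 3 with quantile normalization, protein-coding scaling, the length trend removed, or TMM scaling without normoxia library 5. It was 4 with protein-coding scaling without normoxia library 5, and it ranged from 0 to 2 when each library was left out in turn. It was 0 without hypoxia library 2, 3 or 4 or normoxia library 5 or 7, and 2 without normoxia library 6 or 8. Without hypoxia library 1 it was 1, but Tnfrsf12a in place of Tnfrsf23. With a filter of 2 FPKM it was also 1, Tnfrsf12a, since Tnfrsf23 was not tested there. The number that rose was 0 in every setting except TMM scaling without normoxia library 5, where it was 1 (Tnfrsf21). The causes of these differences were not tested.

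Tnfrsf23, Tnfrsf12a, Tnfrsf1b, Tnfrsf10b, Tnfrsf22, Tnfrsf1a, Tnfrsf11a, Tnfrsf21 and Tnfsf10 kept their direction in every setting in which they were tested. Of the settings, 9 brought Tnfrsf12a and 6 brought Tnfrsf1b past the threshold, and 10 took Tnfrsf23 out of it. Members with small changes reversed. Ltbr was 0.16 with TMM scaling without normoxia library 5. Tnfrsf18 was 0.013 with TMM scaling, 0.0024 with quantile normalization, 0.0044 with protein-coding scaling, 0.18 with the length trend removed and 0.024 with TMM scaling without normoxia library 5. Fas was -0.16 with protein-coding scaling without normoxia library 5. With each library left out, the log2 change ranged from -0.42 to 0.47 for Fas, -1.32 to 0.46 for Tnfsf12, -0.24 to 0.028 for Tnfrsf18 and -0.26 to 0.40 for Tnfsf13.

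Over all genes, 44 rose and 87 fell as deposited, and the median log2 change moved from -0.14 to -0.015 with protein-coding scaling (148 rose, 228 fell) and to 0.016 with TMM scaling (175 rose, 191 fell). The lowest-depth library, hypoxia 3, held an estimated 1620000 protein-coding fragments, so members under about 0.5 FPKM rested on a handful of fragments. No paired analysis was possible because the replicate numbers (1 to 4 and 5 to 8) are not shared between the groups.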

Other observations

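Family genes that the naming rule leaves out were low. Relt, a receptor gene of the family, was 0.23, 0.17, 0.10 and 0.05 FPKM after hypoxia and 0.56, 0.47, 1.15 and 0.41 FPKM after normoxia, and its groups did not overlap. The hypoxia values of Relt were the lower ones, and 2.21% of all genes above 0 in at least 1 library were apart in that direction. Relt was below the mean of 0.5 FPKM and was not tested. Ngfr, the gene of the neurotrophin receptor p75 with a death domain, was the only tested one of 8 such genes, at 0.53, 0.11, 0.10 and 0.28 FPKM after hypoxia and 1.16, 0.75, 1.34 and 0.18 FPKM after normoxia (log2 change -0.79 ± 0.41, SE, limma adjusted p = 0.60, n = 4 each). Its hypoxia mean (0.255 FPKM) was below the filter of 0.5 FPKM, so Ngfr was tested because of its normoxia level. Eda2r, a receptor gene of ectodysplasin, reached 0.14 FPKM after hypoxia and 1.15 FPKM after normoxia. Cd70, the ligand gene of Cd27, was above 0 only in normoxia library 5 (0.09 FPKM).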
